A study of Mus musculus with 2 samples.

Results

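The genes described here encode the fibrillar collagens and other parts of the interstitial matrix, the collagen-rich material that lies between cells and around vessels. A list of 40 genes was used, and probes were tied to genes by looking up their accessions in RefSeq's genes of GRCm38.p6. Probes were found for 38 of the 40 genes (49 probes), out of 20017 genes named on the array. No probe accession matched Col6a3 or Col12a1, so these genes were not analysed here. Of the 38, 37 were measured, meaning that a probe stood well above background on each of the arrays, out of 15975 such genes in all. Tnc was the member that was not. No signal threshold entered the choice of members, but they were chosen with earlier results of these data known.

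RNA came from dissected glomerular regions of male mice of the C57BL/6J strain. Every mouse was 8 weeks old when it was given streptozotocin (STZ), a toxin that destroys insulin-producing cells, in a citrate buffer of 100 mmol/l, and 32 weeks old when it was killed. One array carried RNA of wild type mice (WT+STZ) and the other RNA of Sirt1-overexpressing transgenic mice (TG+STZ). Both groups had thus been given STZ, and no array of untreated mice was analysed here. The promoter and cell type that drive the transgene and the number of mice behind an array are not given in the sources used here. Signals are Cy3 intensities from a 1-colour array on a linear scale.

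Each group had 1 array. No difference has a replicate check, no test or p-value was computed, and a difference between the arrays cannot be told apart from a difference between individual mice or dissections. The differences printed are TG+STZ minus WT+STZ in log2 units after each array was scaled to the 75th percentile of its 43020 gene spots. That scaling took 0.08 off the raw log2 ratio. The ± value is the error that the scanner software assigns to the spots of both arrays, which was 0.20 for a gene with 1 bright probe, and it does not cover biological spread. Probes differ in how well they bind, so signals were compared between the arrays for the same gene and not between genes. In bulk RNA, fewer cells of a type and less RNA per cell cannot be told apart.

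The share of gene spots well above background was 75.04% for WT+STZ and 76.26% for TG+STZ. The 8 spike-in probes above background on both arrays differed by -0.05 to 0.05. Sirt1 read 2625 units for WT+STZ and 2977 units for TG+STZ, a difference of 0.10 ± 0.20, and whether its probe covers the transgene was not analysed here. The podocyte markers Nphs1 and Podxl were measured, at 827 and 1508 units for WT+STZ and at 471 and 1399 units for TG+STZ. The 6 proximal tubule markers were measured too, at 25018 to 168222 units for WT+STZ and 29265 to 176406 units for TG+STZ, so tubule markers were present beside those of podocytes.

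Fibrillar collagens are secreted as soluble procollagens, trimmed outside the cell, assembled into fibrils and crosslinked by lysyl oxidases. Small leucine-rich proteoglycans bind the fibril surface, microfibrils and elastin give tissue its recoil, and metalloproteinases and their inhibitors set the turnover of the whole. In a healthy kidney most of this matrix lies around arteries and in the capsule, while the glomerulus itself holds basement membrane and mesangial matrix, and fibrosis of the diabetic kidney adds interstitial collagen.

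Most of the matrix genes had a higher signal on the TG+STZ array. Of the 37 measured genes, 30 were higher and 7 lower, against 50.9% higher among all measured genes. Their median difference was 0.19, against 0.00 for all genes, and individual genes ran from -0.24 for Eln to 1.10 for Clec3b. In 19 genes the higher signal exceeded the gene's own scanner error, and in 1 gene, Eln, the lower signal did, beside 10.4% and 13.3% of all measured genes. Because the list was chosen with earlier results of these data known, this and later counts cannot measure an excess over all genes. Background correction by normexp with an added offset of 50 units gave 24 higher and 13 lower and a median of 0.11. Under it 36.9% of all genes were higher and the median of all genes was -0.05.

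The larger differences were all in one direction. At least 1.3-fold higher in TG+STZ were 11 members (Clec3b, Igfbp6, Dpt, Ccn2, Mfap5, Col1a1, Mmp2, Lum, Dcn, Timp1 and Col3a1), and no member was as far in the other direction. The share of all measured genes past 1.3-fold was 4.09% in the higher and 4.86% in the lower direction. At 1.5-fold there were 3 members higher (Clec3b, Igfbp6 and Dpt) and 0 lower, where 1.75% and 1.91% of all genes passed. Clec3b alone was 2-fold higher, as were 0.52% of all genes. Under normexp 6 members were still 1.3-fold higher, namely Ccn2, Igfbp6, Col1a1, Dcn, Lum and Mfap5, and none was 1.5-fold higher, beside 1.71% and 0.68% of all genes under that setting.

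**Figure D1:**
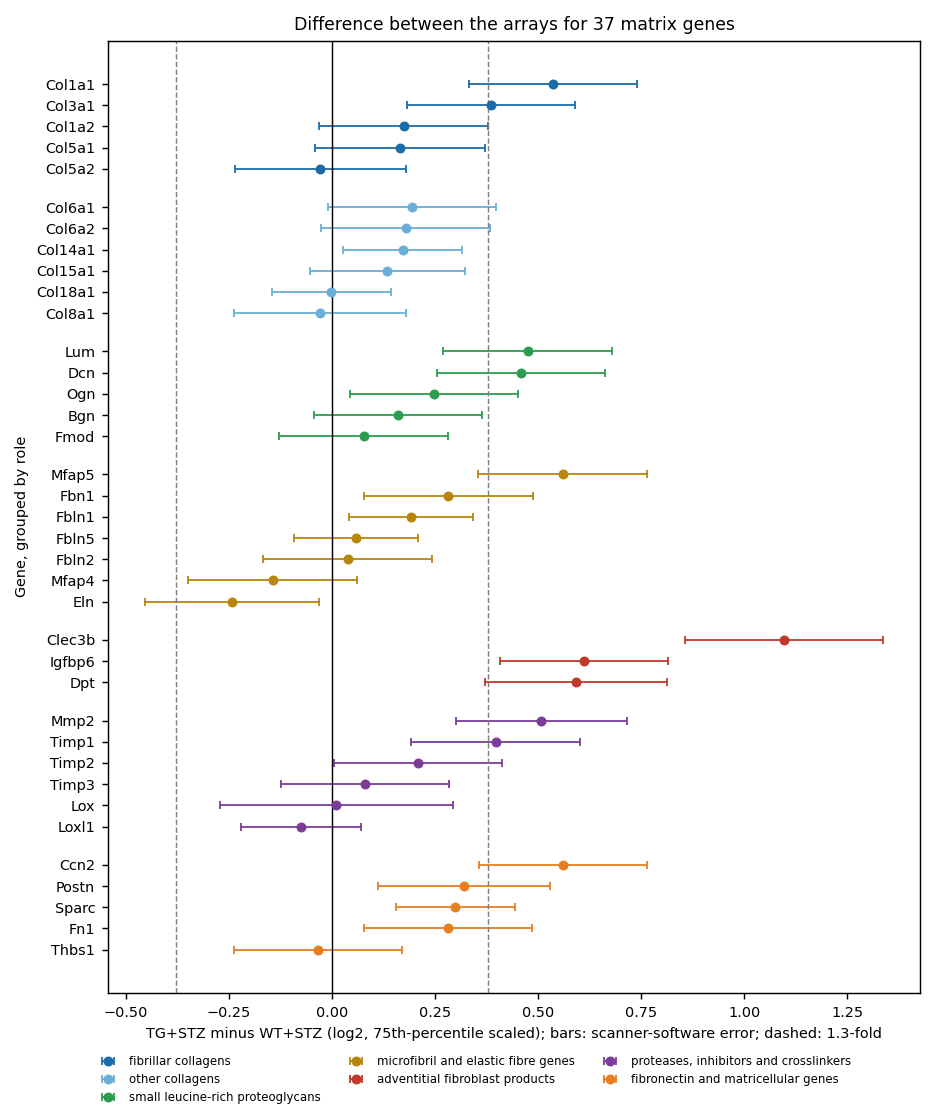
TG+STZ minus WT+STZ (log2, horizontal axis) for the 37 measured matrix genes, grouped by role and ordered within each group. Points are gene values from 1 array per group, bars the scanner software's error and dashed lines 1.3-fold. The 11 genes to the right of the upper dashed line include all 3 adventitial products, and no gene lies to the left of the lower one. Col18a1, Col5a2, Col8a1, Lox, Col15a1, Fbln1, Fbln2, Fmod and Postn changed sign under at least 1 other processing setting.

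Dim probes scatter more on these arrays, so the members were also set beside genes of like signal. Of 6 members with a mean signal under 100 units, 2 were at least 1.3-fold higher, beside 9.02% of all genes that dim. Of 31 members at 100 units or more, 9 were at least 1.3-fold higher, beside 2.9% of all genes that bright. The median over the 31 brighter members was 0.19 and over the 6 dimmer ones 0.07. Most of the 11 genes past 1.3-fold were thus not dim.

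**Figure D2:**
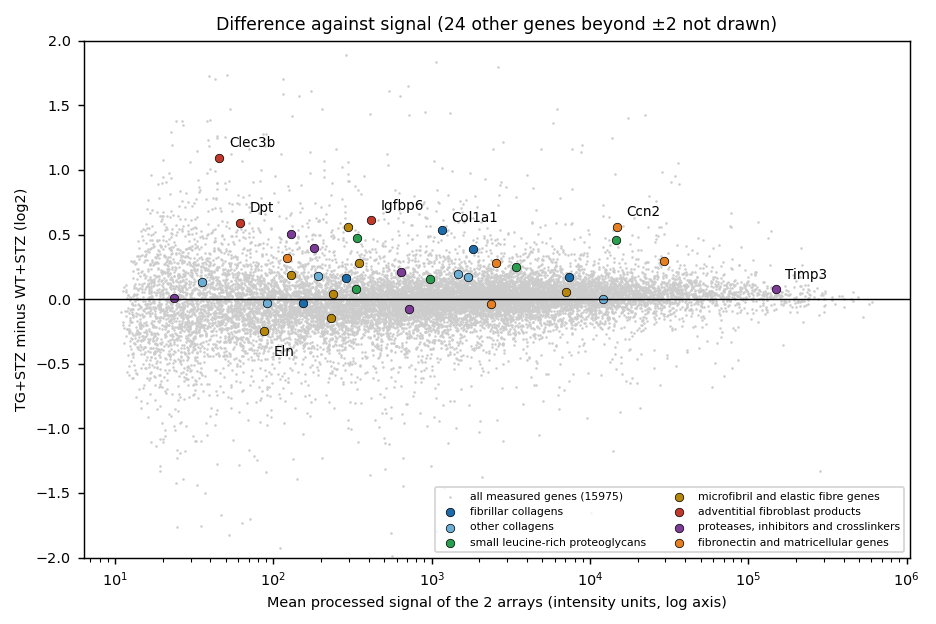
Difference between the arrays (log2, vertical axis) against the mean processed signal of both arrays (intensity units, log axis). Grey points are the 15975 measured genes and coloured points the 37 matrix genes by role. Grey points fan out at low signal, where Clec3b and Dpt lie, while Ccn2, Dcn and Col1a1 lie among the higher points at larger signals. A further 24 genes beyond ±2, none of them members, are not drawn.

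Promoter sequence was at hand for 24 of the 40 genes, in a RefSeq table of build GRCm38.p6, and for 4 of the 11 genes that were at least 1.3-fold higher. These 4 genes, from 3 role groups, are shown only because they passed 1.3-fold and had a window at hand. The 250 bases before each start site are printed below. They cover chr1:45311288-45311537 for Col3a1, chr1:164796413-164796662 for Dpt, chr15:102143936-102144185 for Igfbp6 and chrX:20869916-20870165 for Timp1, all on the plus strand. Capitals mark exact matches on either strand to 5 motifs, and no printed match overlaps another. The motifs were TATAAA for a TATA box, CCAAT for the box named by those letters, TGANTCA for AP-1, CAGAC for SMAD factors and CATTCC for TEAD factors.
Col3a1: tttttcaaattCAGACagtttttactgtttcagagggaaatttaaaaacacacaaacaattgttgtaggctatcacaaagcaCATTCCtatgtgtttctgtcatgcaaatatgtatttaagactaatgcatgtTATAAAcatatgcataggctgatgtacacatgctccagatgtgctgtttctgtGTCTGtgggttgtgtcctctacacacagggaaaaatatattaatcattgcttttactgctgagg
Dpt: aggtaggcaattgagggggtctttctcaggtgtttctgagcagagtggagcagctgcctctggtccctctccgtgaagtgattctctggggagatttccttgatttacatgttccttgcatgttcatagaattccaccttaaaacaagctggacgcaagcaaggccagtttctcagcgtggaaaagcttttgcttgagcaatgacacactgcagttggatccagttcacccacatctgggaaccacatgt
Igfbp6: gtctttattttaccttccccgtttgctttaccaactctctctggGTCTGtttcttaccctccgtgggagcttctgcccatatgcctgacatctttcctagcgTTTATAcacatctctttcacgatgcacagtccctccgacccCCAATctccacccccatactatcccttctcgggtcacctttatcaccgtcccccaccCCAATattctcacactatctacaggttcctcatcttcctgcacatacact
Timp1: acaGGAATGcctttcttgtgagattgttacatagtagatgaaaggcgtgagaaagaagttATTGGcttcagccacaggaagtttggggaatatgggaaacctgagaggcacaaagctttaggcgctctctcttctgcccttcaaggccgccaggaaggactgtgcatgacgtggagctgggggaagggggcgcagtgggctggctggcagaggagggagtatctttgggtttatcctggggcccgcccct
The window of Dpt held none of the 5 motifs and that of Timp1 held CCAAT and TEAD letters. The windows of Col3a1 and Igfbp6 both held TATA and SMAD letters. Over all 24 member windows the SMAD letters occurred in 10 (41.7%), beside 42.1% of the first listed windows of 27025 genes. TATA letters occurred in 4 (16.7%) beside 13.0%, CCAAT in 6 (25%) beside 34.5%, TEAD in 4 (16.7%) beside 12.6%, and AP-1 in 1 (4.17%) beside 6.87%. These counts describe letters in a window and say nothing of whether a factor binds there.

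The fibrillar collagens were led by Col1a1, the main chain of collagen I. Col1a1 read 917 units for WT+STZ and 1404 units for TG+STZ, a difference of 0.53 ± 0.20 (1.45-fold). Only 2.16% of all measured genes were as high or higher. Col1a2, the partner chain of Col1a1 in the same molecule, read 6742 and 8029 units, a difference of 0.17 ± 0.20. Both chains were higher in TG+STZ, and the gap between their differences was 0.36 with a combined scanner error of 0.29.

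Col3a1, which forms collagen III of elastic tissues and vessel walls, read 1525 units for WT+STZ and 2105 units for TG+STZ (0.39 ± 0.20, or 1.31-fold). The collagen V genes, whose product starts and limits the width of fibrils, were closer to 0. Col5a1 read 262 and 310 units (0.16 ± 0.21). Col5a2 read 151 and 157 (-0.03 ± 0.21, above 0 under quantile normalization and loess). Col3a1 and Col5a2 are neighbours on chromosome 1 in the RefSeq table, and their differences lay 0.41 apart with a combined error of 0.29. The group median was 0.17 over 5 genes, and 4 of them were higher.

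**Figure D3:**
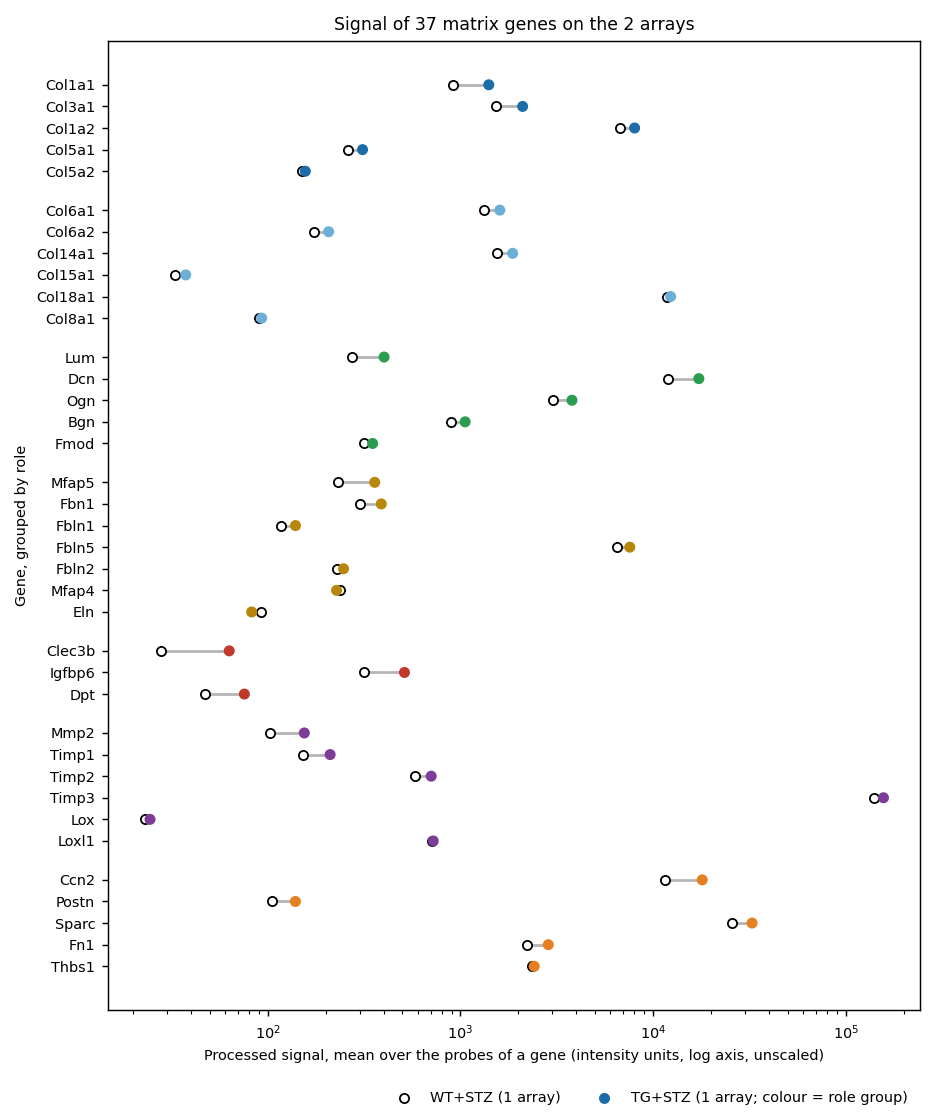
Processed signal (intensity units, log axis, before scaling) of the 37 measured matrix genes on the WT+STZ array (open circles) and the TG+STZ array (filled circles, coloured by role). Each gene is a mean over its probes. Filled circles lie to the right of open ones for all genes but Eln and Mfap4. Before scaling, the TG+STZ array as a whole was brighter by 0.08 in log2 units.

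Among the other collagens the differences were small. Col6a1 and Col6a2 encode chains of the beaded filaments of collagen VI, which link cells to the fibrils. Col6a1 read 1327 units for WT+STZ and 1603 units for TG+STZ (0.19 ± 0.20). Col6a2, its neighbour on chromosome 10, read 173 and 207 (0.18 ± 0.21). The values of the chains differed by 0.02, well within the combined error of 0.29. Both stayed above 0 under the 10 other settings tried.

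Col14a1, a collagen that sits on the fibril surface, had a pair of probes that read 2674 and 3257 units for the brighter and 413 and 479 for the dimmer, and its mean difference was 0.17 ± 0.14. Col15a1 and Col18a1 belong to the basement membrane zone, and Col18a1 carries the fragment endostatin. Col18a1 read 11767 and 12349 units (-0.00 ± 0.14, above 0 under median and spike-in centring), and its probes stood at -0.05 and 0.05. Col15a1 was dim at 33.1 and 37.5 units (0.13 ± 0.19, and -0.18 under normexp), with a further probe above background on the TG+STZ array alone. Col8a1, a short-chain collagen of vessel walls, read 89.9 and 93.0 units (-0.03 ± 0.21, above 0 under quantile normalization and loess). None of the 6 measured genes reached 1.3-fold, and their median was 0.15, or 0.03 under normexp.

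All 5 small leucine-rich proteoglycans were higher on the TG+STZ array, although Fmod turned to -0.04 under normexp. Dcn encodes decorin, which binds collagen I fibrils and sequesters TGF-beta. It read 11936 units for WT+STZ and 17308 units for TG+STZ, a difference of 0.46 ± 0.20 (1.37-fold). Lum encodes lumican, which regulates fibril spacing, and read 274 and 402 units (0.47 ± 0.20, or 1.39-fold). The difference of Dcn minus that of Lum was -0.02, with a combined error of 0.29.

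Ogn, osteoglycin, read 3028 units for WT+STZ and 3796 units for TG+STZ (0.25 ± 0.20). Bgn, biglycan, read 897 and 1059 units (0.16 ± 0.20). Fmod, fibromodulin, was closest to 0 with 314 and 350 units (0.08 ± 0.20). The median of the group was 0.25, and it was 0.32 under normexp.

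Several of these proteoglycan genes lie in clusters, so their neighbours in the RefSeq gene order were also read. Dcn and Lum are adjacent on chromosome 10. Kera and Epyc, the further proteoglycan genes of that cluster, were not measured on both arrays, with signals of at most 5.39 units, while Btg1 and Eea1 on the other side of Dcn stood at -0.06 and 0.06. On chromosome 13, Omd, which lies next to Ogn, read 340 and 466 units (0.37 ± 0.20), whereas Aspn, the gene after it, read 99.3 and 81.2 units (-0.37 ± 0.21) and Ecm2 stood at -0.00. Neighbouring proteoglycan genes thus included values on both sides of 0.

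Microfibril and elastic fibre genes were split. Mfap5, a small glycoprotein of microfibrils, read 231 units for WT+STZ and 359 units for TG+STZ, a difference of 0.56 ± 0.20 (1.47-fold). Mfap4, another microfibril-associated protein, read 238 and 228 units (-0.14 ± 0.20). The gap between them was 0.70 with a combined scanner error of 0.29, the widest of the 8 pairs of members set side by side.

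Fbn1, which encodes the microfibril backbone fibrillin-1, read 303 units for WT+STZ and 388 units for TG+STZ (0.28 ± 0.20). Eln, which encodes elastin, read 92.4 and 82.5 units (-0.24 ± 0.21) and was the lowest member. Fbn1 and Eln lay 0.52 apart with a combined error of 0.29. Eln stayed below 0 under the 10 other settings, at -0.27 to -0.19.

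The fibulins, which bridge elastin and microfibrils, were nearer to 0. Fbln1 read 118 units for WT+STZ and 139 units for TG+STZ (0.19 ± 0.15, and -0.03 under normexp). Fbln2 read 228 and 247 (0.04 ± 0.20, and -0.03 under normexp). Fbln5 had a bright probe at 12959 and 15094 units (0.14) and a dim one at 65.2 and 67.6 (-0.03), which gave 0.06 ± 0.15. The median of the 7 genes was 0.06, and it was -0.03 under normexp and 0.14 with the brightest probe of each gene.

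The 3 adventitial fibroblast products stood furthest from 0, and the values of the dimmer ones were smaller under normexp. That setting added 50 units to each signal, which by itself pulls the log2 ratio of so dim a probe toward 0. Clec3b encodes tetranectin, a plasminogen-binding protein. It read 27.9 units for WT+STZ and 63.1 units for TG+STZ, a difference of 1.10 ± 0.24 (2.14-fold). Only 0.444% of measured genes were as high or higher, but under normexp Clec3b stood at 0.17.

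Dpt encodes dermatopontin, which binds decorin and collagen, and its probe was spotted 10 times on each array. The spots ran from 44.1 to 52.7 units on the WT+STZ array (median 47.1) and from 68.9 to 84.1 on the TG+STZ array (median 74.6), so the spots of the arrays did not overlap. The difference was 0.59 ± 0.22 (1.51-fold), with an SD among spots of 0.07 and 0.09 in log2 units, and 0.12 under normexp. These spots repeat the same RNA and are not replicates of mice.

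Igfbp6, a binding protein that prefers insulin-like growth factor II, moved less under normexp. It read 318 units for WT+STZ and 512 units for TG+STZ (0.61 ± 0.20, or 1.53-fold), and 0.46 under normexp. The median of the group was 0.61, and 0.17 under normexp.

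Among genes of matrix turnover, Mmp2 and Timp1 were furthest from 0, and Timp3 and both crosslinking enzymes were near it. Mmp2, gelatinase A, read 103 units for WT+STZ and 155 units for TG+STZ, a difference of 0.51 ± 0.21 (1.42-fold, and 0.29 under normexp). Timp1, an inducible inhibitor of metalloproteinases, read 152 and 211 units (0.40 ± 0.21, or 1.32-fold, and 0.18 under normexp). Timp2, which inhibits Mmp2 and also helps to activate it, read 578 and 706 units (0.21 ± 0.20) on the probe kept, while a brighter probe at 10617 and 12394 units was left out because the software marked its spot on the WT+STZ array as an outlier.

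Timp3, the inhibitor that binds to the matrix itself, read 141001 units for WT+STZ and 157340 units for TG+STZ (0.08 ± 0.20). Loxl1, an oxidase that acts on elastin, read 713 and 723 units (-0.08 ± 0.14), and both its probes were below 0. Lox, the main crosslinker of collagen, was barely above background at 23.0 and 24.5 units on the probe that counted (0.01 ± 0.28, -0.21 under normexp and -0.01 when scaled to detected probes). Averaged with its other probe, which was not above background on either array, Lox stood at -0.56. Mmp2 and Timp2 lay 0.30 apart with a combined error of 0.29. The median of the 6 genes was 0.14.

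Fibronectin and the genes of matricellular proteins, which act on cells and growth factors in the matrix, had a median of 0.30 over 5 genes. Ccn2, or connective tissue growth factor, a target of TGF-beta and of YAP, read 11567 units for WT+STZ and 18021 units for TG+STZ. Its difference of 0.56 ± 0.20 (1.48-fold) ran from 0.52 to 0.58 under the 10 other settings, and it was 0.56 under normexp. Ccn2 has 1 bright probe, so the settings for filter, flag, brightest probe and value table could not move it. Sparc, a collagen-binding glycoprotein, had probes at 2293 and 3069 units and at 49454 and 62339 units, and its mean difference was 0.30 ± 0.14. Both Sparc probes were higher, by 0.34 and 0.26.

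Fn1, fibronectin, on which collagen is laid down, read 2229 units for WT+STZ and 2861 units for TG+STZ (0.28 ± 0.20). Postn, periostin, a product of activated fibroblasts, read 106 and 139 units (0.32 ± 0.21, and -0.01 under normexp). Thbs1, thrombospondin-1, which activates latent TGF-beta, read 2345 and 2418 (-0.03 ± 0.20). Tnc, tenascin-C, was not measured on both arrays: a probe was above background in WT+STZ alone (14.6 and 4.42 units) and another in TG+STZ alone (10.6 and 11.4 units), so no fold is given.

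**Figure D4:**
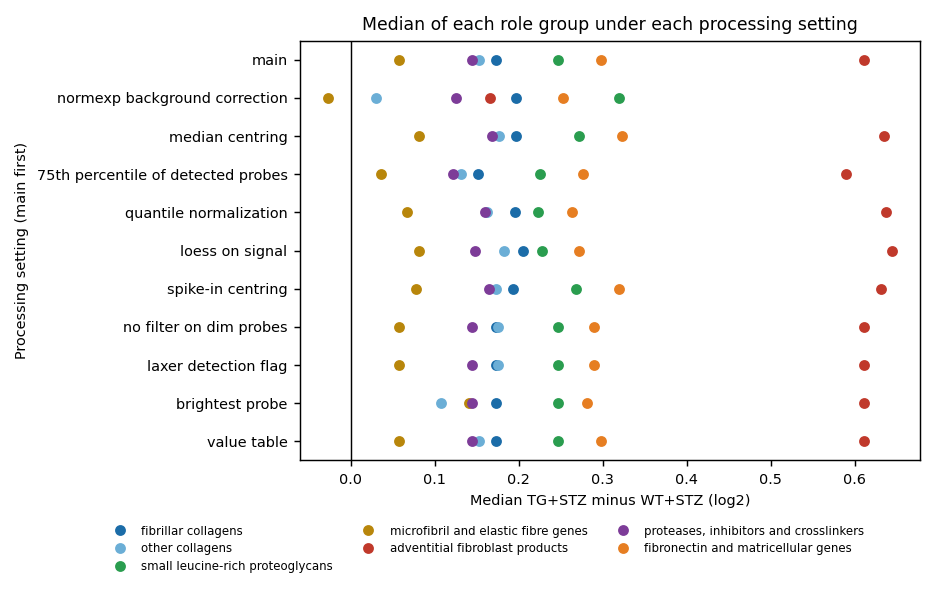
Median difference TG+STZ minus WT+STZ (log2, horizontal axis) of each role group under the main processing and 10 alternatives (vertical axis). Colours are the role groups. Medians of adventitial products sit near 0.6 except under normexp, where the median is 0.17, and the microfibril median lies above 0 except under normexp, where it is -0.03.

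Enzymes that mature collagen lay on both sides of 0. Of 21 measured genes for hydroxylation, folding, trimming and crosslinking, 8 were higher and 13 lower, with a median of -0.04. The highest were Adamts2, which removes the amino-terminal propeptide of collagen, at 0.41 ± 0.19 (297 and 427 units) and Pcolce2, an enhancer of carboxy-terminal trimming, at 0.31 ± 0.21 (195 and 256 units). The lowest were Loxl4 at -0.61 ± 0.15 (144 and 102 units) and P4ha3, a subunit of a prolyl hydroxylase, at -0.21 ± 0.19 (164 and 163 units, from probes at -0.35 and -0.07).

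Receptors that bind matrix at the cell surface had a median of -0.02 over 13 genes, with 5 higher and 8 lower. Itga11, a collagen receptor subunit of fibroblasts, was lowest at -0.68 ± 0.22 (65.2 and 43.0 units), and Itgb3 stood at -0.33 ± 0.21 (152 and 127 units). Itga8, a mesangial integrin subunit, and Sdc1, a cell-surface proteoglycan, were highest at 0.15 ± 0.20 and 0.09 ± 0.20. None of the higher receptors exceeded its own scanner error.

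Of 18 measured genes of matrix degradation, 8 were higher and 10 lower, with a median of -0.08. Mmp13, a collagenase, read 114 units for WT+STZ and 163 units for TG+STZ (0.44 ± 0.21), and Ctsk, a collagen-cleaving cathepsin, 764 and 1073 (0.41 ± 0.20). Mmp7, matrilysin, was lowest with 38.4 and 15.5 units (-1.39 ± 0.34), followed by Plau, urokinase, with 6591 and 5310 units (-0.39 ± 0.20). The degradation genes therefore lay on both sides of 0.

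Signals that induce matrix had a median of 0.02 over 20 genes, and none reached 1.3-fold. Tgfb1 itself stood at 0.01 ± 0.20, with 276 units for WT+STZ and 293 units for TG+STZ. Ltbp4, which stores latent TGF-beta on microfibrils, was highest at 0.34 ± 0.14, followed by Ccn1, a relative of Ccn2, at 0.30 ± 0.20. Tgfb3 and Smad3 were lowest at -0.24 ± 0.20 and -0.18 ± 0.15. Basement membrane genes had a median of 0.02 over 17 genes and none reached 1.3-fold, with Col4a5 at 0.21 ± 0.20 and Lama2 at 0.18 ± 0.14 highest and Lamb2 at -0.16 ± 0.20 and Lamb1 at -0.14 ± 0.20 lowest.

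Markers of several cell types differed between the arrays beside the matrix genes, and their part in the matrix values was not tested. Of 12 fibroblast markers that are not members, 11 were measured, 8 of them higher, with a median of 0.14 that was -0.01 under normexp. Their summed signal before scaling was 344344 units for WT+STZ and 383207 units for TG+STZ, and no marker was 1.3-fold apart. Most of that sum came from Medag (235924 and 250671 units), whose difference was 0.01. After scaling, the log2 ratio of the sums was 0.08, which rests mostly on Medag and says little of the other markers. Mgp at 0.26 ± 0.20 and Ly6a at 0.25 ± 0.20 were highest, while Pdgfra, Pi16 and Cd34 stood at 0.03, -0.03 and -0.15. Col13a1, the remaining marker, was above background in TG+STZ alone, at 13.7 units against 8.32.

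Fat cell markers showed the widest differences. All 6 markers measured on both arrays were higher, with a median of 0.81, or 0.43 under normexp. Their summed signal before scaling was 22852 units for WT+STZ and 29931 units for TG+STZ. Most of that sum came from Fabp4 (11503 and 15379 units) and Car3 (10506 and 12184 units), so it says little of the other markers. Cfd, the adipokine adipsin, read 41.2 and 1225 units (4.82 ± 0.22) and Retn, resistin, 28.9 and 218 (2.84 ± 0.24), while Pparg and Car3 were lowest at 0.05 and 0.13. Adipoq, Plin1 and Ucp1 were above background in TG+STZ alone, at least 13.9-fold, 4.17-fold and 24.5-fold higher when their WT+STZ value is set to the dimmest signal that passed background there, or to the probe's own where that was higher. Lep was above background on neither array. Each of the 5 mesothelial markers measured, from the cells that cover the organ surface, was higher too, with a median of 0.23. The summed signal of these 5 before scaling was 2972 and 3565 units. Upk3b at 1.14 ± 0.21 and Upk1b at 0.88 ± 0.21 were highest. Wt1, at 0.06, also marks podocytes, and whether the other markers are particular to mesothelial cells was not tested. Msln stood at 0.23, and Lrrn4 was not above background on either array.

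For contractile and glomerular cells most markers lay below 0. The summed signals given here are before scaling, unlike the medians and counts. After scaling, the log2 ratio of the sums was -0.03 for mesangial and -0.05 for endothelial markers. It was -0.04 for proximal tubule markers and -0.07 for Schwann cell and nerve markers. Of 6 smooth muscle and myofibroblast markers 5 were lower, with a median of -0.18 and a summed signal of 22176 units for WT+STZ and 20654 units for TG+STZ, and Acta2, the actin of myofibroblasts, was lowest at -0.35 ± 0.20. Mesangial markers had a median of -0.07 (4 of 6 lower, 14533 and 15042 units summed). Of the podocyte markers, Nphs1 stood at -0.89 ± 0.20, Podxl at -0.19 ± 0.20 and Synpo at -0.09 ± 0.14. Endothelial markers had a median of -0.08 (5 of 6 lower, 14613 and 14883 units summed) and proximal tubule markers -0.03 (5 of 6 lower, 578036 and 594911 units). Leukocytes had all 5 measured markers below 0, their median at -0.12 (14675 and 14240 units), and 4 of 5 Schwann cell and nerve markers were lower, with a median of -0.06 (1429 and 1442 units) and S100b at 0.45 ± 0.23.

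**Figure D5:**
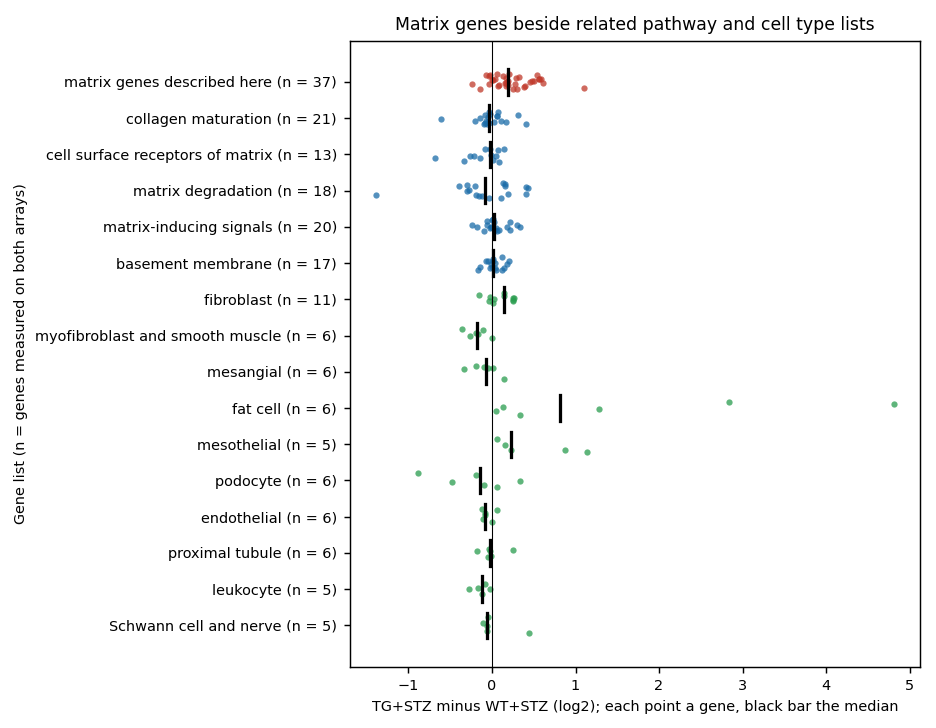
Difference TG+STZ minus WT+STZ (log2, horizontal axis) of each gene measured on both arrays, by list (vertical axis). Red points are the 37 matrix genes, blue the pathway lists, green the cell type markers, and black bars the medians. The matrix genes have a median of 0.19 and fat cell markers 0.81, while the medians of the 5 pathway lists lie between -0.08 and 0.02.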

How the data were processed

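The deposited scanner tables hold the authors' processed signal per spot as intensity on a linear scale, with its error and flags. Per the file headers, Agilent Feature Extraction 10.7.1.1 subtracted background and removed trends within an array. Version 10.3.1.1 stands in the submitters' processing notes. The deposited value table held the same intensity at each of 44397 spots of both arrays.

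From each spot's log2 intensity, the array's 75th percentile over gene spots was subtracted. Control spots and outlier spots (114 in WT+STZ and 109 in TG+STZ) were left out, spots of a probe were averaged, and probes well above background on both arrays were averaged per gene. Of 39426 probes, 26410 matched a symbol. No replicates exist, so no test was run. The members and all lists were chosen with earlier results of these data known. Values are given for members at least 1.3-fold apart and the extremes of each role group, other members in brief, and the 2 highest and 2 lowest genes of each pathway list. Marker genes, neighbours and pairs outside that rule were picked with their values known. Itga8, Pdgfra, Pdgfrb and Wt1 stand in 2 lists each. Some marker genes are not reported here. The steps were checked on simulated data. Python 3.11.15, pandas 2.3.3, statsmodels 0.14.6, R 4.3.3 and limma 3.58.1 were used.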

Additional observations from a re-analysis of the deposited data

How the results depend on the processing

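The 10 alternatives were normexp (offset 50, on spot medians), median centring, the 75th percentile of detected probes, quantile normalization, loess on signal (span 0.3), spike-in centring, no filter on dim probes, a laxer detection flag, the brightest probe per gene and the value table. Of the 37 members, 28 kept their sign under all of them, 24 higher and 4 lower. Not every setting could move every gene. The value table held the same intensities and could move none. The filter, flag and brightest-probe settings could move only measured genes with more than 1 probe. Median, detected-probe and spike-in centring shift all genes by the same amount. Normexp moved more of these values than any other setting: the median of the members was 0.11, 13 members were lower, 6 reached 1.3-fold and 0 reached 1.5-fold in the higher direction, and the medians were 0.030 for the other collagens, -0.026 for the microfibril genes and 0.17 for the adventitial products. The 50 units that normexp added by themselves pull the log2 ratios of dim probes toward 0. Its values therefore do not isolate the background correction. The median of all genes was -0.05 under normexp, and the cause was not tested. The median of the members was 0.23 under loess, and the cause was not tested. That of the microfibril genes was 0.14 with the brightest probe, because Fbln5, the middle gene, was then read from its bright probe alone. With no filter on dim probes, or the laxer flag, 1 member (Tnc) was at least 1.5-fold lower. A 2-fold threshold left 1 member higher. No paired analysis was possible because each group has 1 array, and no replicate could be left out.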
